A study of Homo sapiens with 15 samples.

Results

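RNA polymerase II (RNAPII) carries the nascent RNA that it makes, so a pulldown of RNAPII recovers RNA still being transcribed and processed. PHC1 is a Polyhomeotic subunit of Polycomb repressive complex 1 (PRC1), a chromatin complex that keeps genes silent, and PRC1 is known to work beside PRC2, whose enzyme EZH2 places the mark H3K27me3. PAR-CLIP feeds cells a photoreactive nucleoside, crosslinks RNA to protein with light, and sequences the RNA that stays with the purified protein, with 4-thiouridine (4SU) standing in for uridine and 6-thioguanosine (6SG) for guanosine.

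The 9 genes described here are TEX15, SMARCA1, TTC13, MDM1, LRP2, ZNF711, ANK3, CCDC112 and C22orf46P, out of 14432 genes in the tables. They were chosen by these measured values themselves, an RNAPII 4SU signal far above the PHC1 signal, so that difference is given below as a description without a test. The cells were HEK293T T-REx throughout, an embryonic kidney line of human origin built for inducible transgenes. PHC1 PAR-CLIP had 2 libraries from cells carrying a PHC1 transgene, grown with hygromycin, given 100 uM 4SU overnight and pulled down with streptavidin beads. RNAPII PAR-CLIP had 1 library from cells without a transgene given 100 uM 4SU overnight and 1 library from such cells given 100 uM 6SG, both with an antibody to the RNAPII C-terminal domain. Total nuclear RNA-seq had 2 libraries from cells without a transgene or a nucleoside. ChIP-seq had 2 libraries of transgenic PHC1, 2 of a transgene labelled PHC1-dFCS, both streptavidin pulldowns from hygromycin cultures, and a single library per target for H3K4me3, RNAPII, H3K27me3, EZH2 and input DNA, all from cells without a transgene. The series asks where PHC1 binds RNA in relation to nuclear RNA, with RNAPII PAR-CLIP as the control. PHC1 and RNAPII PAR-CLIP therefore differ in transgene, hygromycin and pulldown reagent as well as in protein, and these cannot be told apart. PHC1 PAR-CLIP and nuclear RNA-seq differ in transgene, hygromycin, 4SU and assay. RNAPII PAR-CLIP and nuclear RNA-seq differ in nucleoside and assay, and these cannot be told apart either.

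The PHC1 libraries held 696186 and 698056 clusters, the RNAPII 4SU library 667937 and the RNAPII 6SG library 45259, a cluster being a stretch of genome covered by crosslinked reads. The nuclear RNA libraries held 47187882 and 49626658 reads in genes. Levels in CPM set each gene's summed cluster coverage or read count against its library's TMM-scaled total, multiplied by 1000000. Among HEK293 markers, VIM reached 768 and 744 CPM in nuclear RNA and CDH2 350 and 355, while NEFM stayed at 0.317 or less. Markers of blood, hepatocytes, fibroblasts and keratinocytes summed to at most 1.41 CPM per list in nuclear RNA. Nothing in the labels says that replicates came from separate cultures, so the p-values describe how far these libraries scatter, and that scatter may be purely technical. The lone RNAPII libraries were assumed to vary like the replicated groups.

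In the hg19 regions of the deposited table, LRP2 lies at chr2:169983619-170219122, ANK3 at chr10:61786056-62493284, TTC13 at chr1:231041987-231114618 and SMARCA1 at chrX:128580478-128657460. MDM1 lies at chr12:68688346-68726161, ZNF711 at chrX:84498997-84528368, CCDC112 at chr5:114602885-114632458, TEX15 at chr8:30689060-30706533 and C22orf46P at chr22:42086547-42094140. ANK3 is the longest region, at 707 kb, and C22orf46P the shortest, at 7.59 kb. The table's region of TEX15 spans 17.5 kb, or 21.5% of the 81.5 kb that RefSeq gives the gene in GRCh38.p14, and that of C22orf46P spans 7.6 kb of 9.2 kb. ZNF711 and C22orf46P lie on the plus strand and the other 7 on the minus strand. For TEX15 and C22orf46P the strand was taken from their RNAPII 4SU clusters and for the others from RefSeq.

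The genes do unrelated work. TEX15 is a germ cell gene required in mice for meiosis and for silencing transposons in the male germline. SMARCA1 is an ISWI-type chromatin remodelling ATPase, and ZNF711 is a zinc finger transcription factor that binds promoters with the histone demethylase PHF8. LRP2, or megalin, is the large endocytic receptor of the kidney proximal tubule. ANK3 encodes ankyrin-G, which anchors membrane proteins to the spectrin skeleton. MDM1 is a microtubule-binding protein of centrioles. TTC13 encodes a tetratricopeptide repeat protein, CCDC112 a coiled-coil protein, and C22orf46P is annotated in RefSeq as a transcribed pseudogene.

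Promoters of 7 of the 9 genes were matched in the RefSeq promoter table (GRCh38.p14, 250 bases before to 50 bases after a gene start, 11 entries). Those of TTC13, LRP2 and ZNF711 are printed because they mark the extremes of the promoter ChIP and of nuclear RNA given further on. Capitals mark GGGCGG (GC box), CCAAT and TATAAA on either strand, and none of these matches overlaps another in the sequences shown. TTC13 (chr1:230978812-230979111, minus strand) has 1 GC box and 1 CCAAT. LRP2 (chr2:169362485-169362784, minus strand) has 3 GC boxes. ZNF711 (chrX:85243741-85244040, plus strand) has 1 TATAAA and 1 CCAAT.
TTC13: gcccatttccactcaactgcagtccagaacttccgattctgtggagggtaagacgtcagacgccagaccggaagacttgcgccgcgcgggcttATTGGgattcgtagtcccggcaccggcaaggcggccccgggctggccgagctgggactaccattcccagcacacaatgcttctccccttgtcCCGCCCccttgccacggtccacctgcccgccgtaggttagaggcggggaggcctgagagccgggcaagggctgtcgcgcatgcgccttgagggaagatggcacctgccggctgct
LRP2: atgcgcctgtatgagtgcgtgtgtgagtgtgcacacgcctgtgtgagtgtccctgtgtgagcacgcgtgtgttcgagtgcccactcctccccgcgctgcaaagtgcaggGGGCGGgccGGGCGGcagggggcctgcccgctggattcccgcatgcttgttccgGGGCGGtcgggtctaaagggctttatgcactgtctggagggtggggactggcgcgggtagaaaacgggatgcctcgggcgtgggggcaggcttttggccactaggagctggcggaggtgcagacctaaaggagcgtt
ZNF711: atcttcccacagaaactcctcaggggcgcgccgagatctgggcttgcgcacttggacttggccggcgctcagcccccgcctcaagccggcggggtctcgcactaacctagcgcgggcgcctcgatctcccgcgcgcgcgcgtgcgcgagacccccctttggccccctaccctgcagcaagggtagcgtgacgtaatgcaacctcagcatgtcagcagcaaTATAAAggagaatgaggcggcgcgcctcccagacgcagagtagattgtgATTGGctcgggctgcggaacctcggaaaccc
Of the 35116 promoters in the table, 44.95% held GGGCGG, 34.61% CCAAT and 11.53% TATAAA. The E-box CACGTG, held by 7.26% of promoters, was in none of the 11 entries on either strand. Nor was the cyclic AMP response element TGACGTCA, which 1.85% of promoters held. CGCG was in 8 of the 11 entries, all 3 shown among them, against 49.86% of promoters. CG dinucleotides numbered 3, in an entry of ANK3, to 34, in one of CCDC112, over the 11 entries, and 24, 23 and 31 in TTC13, LRP2 and ZNF711, against a median of 14 over all promoters.

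The CPM levels below are not divided by length unless stated. Fold changes are log2 differences of the value plus 1, fitted with limma across the 9517 genes with at least 5 CPM in 2 or more of the 6 RNA-level libraries. All 9 genes passed that filter. TEX15 had 7.02 and 6.31 CPM in PHC1, against 179 in RNAPII 4SU, and 70.8 and 76.3 in nuclear RNA. SMARCA1 had 4.80 and 9.09 in PHC1, against 138 in RNAPII 4SU, and 77.0 and 79.0 in nuclear RNA. LRP2 had 7.85 and 14.3 in PHC1, against 157 in RNAPII 4SU, and 107 and 104 in nuclear RNA. In each of these genes both PHC1 libraries were the lowest of the 4SU and RNA libraries, and RNAPII 4SU was the highest.

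TTC13 had 12.7 and 18.0 CPM in PHC1, against 259 in RNAPII 4SU, and 205 and 214 in nuclear RNA. ANK3 had 20.5 and 23.3 in PHC1, against 301 in RNAPII 4SU, and 115 and 113 in nuclear RNA. ZNF711 had 187 and 174 in PHC1, against 2405 in RNAPII 4SU, and 1872 and 1912 in nuclear RNA. ZNF711 was by far the most abundant of the 9, at the 99.98th percentile of nuclear RNA over all genes, with 106418 and 113615 reads. Even its PHC1 values lay above the RNAPII 4SU values of MDM1, LRP2, SMARCA1, CCDC112 and C22orf46P.

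The PHC1 replicates agreed less well in the remaining genes. MDM1 had 11.8 and 2.21 CPM in PHC1, against 94.4 in RNAPII 4SU, and 65.8 and 62.1 in nuclear RNA. CCDC112 had 16.4 and 6.46 in PHC1, against 139 in RNAPII 4SU, and 42.2 and 45.3 in nuclear RNA. C22orf46P had 6.68 and 2.24 in PHC1, against 92.4 in RNAPII 4SU, and 10.0 and 11.5 in nuclear RNA, which is 570 and 683 reads. In these 3 genes PHC1 replicate 2 was the lower library. The mean PHC1 value of C22orf46P was 0.414 times its mean nuclear RNA value, against 0.073 times in TTC13 and 0.261 times in CCDC112, the lowest and highest ratios of the other 8.

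**Figure D1:**
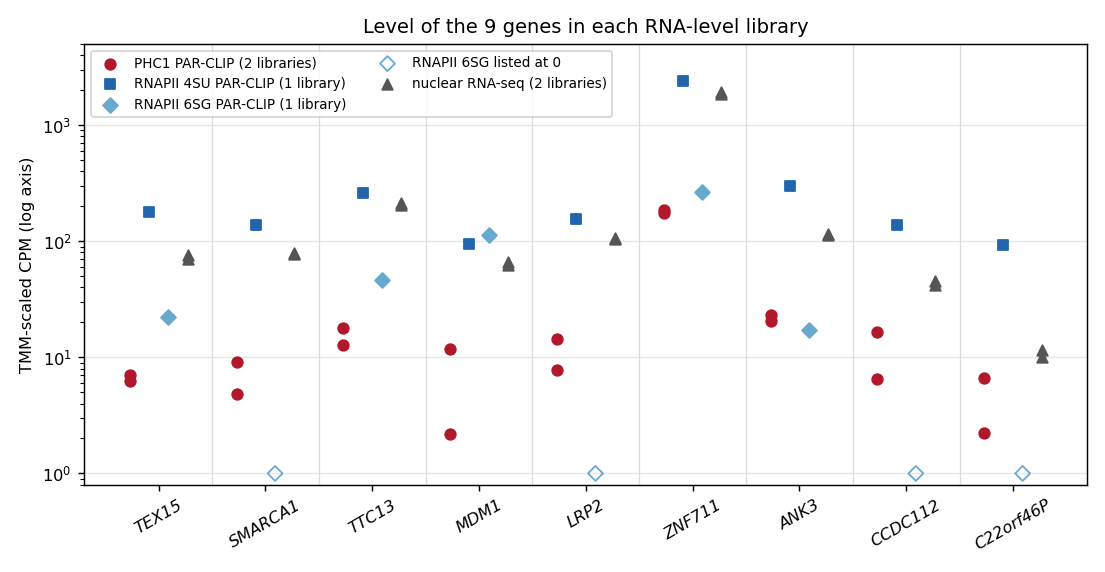
TMM-scaled CPM values (log axis) of the 9 genes in 2 PHC1 PAR-CLIP, 1 RNAPII 4SU, 1 RNAPII 6SG and 2 nuclear RNA-seq libraries, 1 point per library; open diamonds at the bottom edge are values listed at 0 and have no position on the log axis. PHC1 lies lowest of the 4SU and RNA libraries in every gene, and RNAPII 6SG ranges between 0 in 4 genes and 264 in ZNF711.

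The PHC1 minus RNAPII 4SU difference that chose the genes ranged between -4.55 in TEX15 and -3.61 in CCDC112, with a median of -3.89 against -0.091 over all tested genes. By this difference the 9 genes ranked between 11 and 75 from the lowest of 9517 genes. A further 66 genes lay at or below the highest of them, and PPP1R26, at -3.61, was the nearest gene outside. The choice was therefore not a threshold on this difference alone. Of the 9 genes, 8 had an adjusted p under 0.05 in limma, against 14.9% of all tested genes, and since the difference chose them nothing is read from that count. The number of genes called lower over the whole table also moved with the setting. Among fits that kept both PHC1 replicates it lay between 0 with library totals alone and 3242 with the spread of all 6 libraries. Per kilobase of region, RNAPII 4SU levels spanned 0.426 CPM in ANK3, 0.665 in LRP2 and 1.79 in SMARCA1 to 10.2 in TEX15, 12.2 in C22orf46P and 81.9 in ZNF711. PAR-CLIP coverage per length of region thus differed widely among the 9, and these levels depend on how each region was drawn.

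The RNAPII 6SG minus nuclear RNA difference uses neither the PHC1 nor the RNAPII 4SU libraries whose values chose the genes. Its SE and p-value do draw on the PHC1 replicates, because the spread comes from all replicated groups. Since the genes were picked with earlier results of these data known, full independence from the choice is not assured. The 6SG library listed 4 genes at 0, and in 4 others it lay below nuclear RNA. SMARCA1, LRP2, CCDC112 and C22orf46P had no 6SG cluster at all, while a value of 0 was listed for 33.39% of tested genes. The lowest 6SG value above 0 of any tested gene was 2.0 CPM, and a cluster list shows no signal below its calling limit, so no fold is given for these 4.

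TEX15 had 22.3 CPM in RNAPII 6SG, against 70.8 and 76.3 in nuclear RNA, a log2 difference of -1.68 ± 0.137 (SE, limma adjusted p = 0.000666). TTC13 had 46.6 in RNAPII 6SG, against 205 and 214 in nuclear RNA, a difference of -2.14 ± 0.228 (limma adjusted p = 0.00159). ZNF711 had 264 in RNAPII 6SG, against 1872 and 1912 in nuclear RNA, a difference of -2.84 ± 0.0740 (limma adjusted p = 8.21e-05). All 3 fell below both nuclear RNA libraries by more than the spread between replicates. ANK3 had 17.3 in RNAPII 6SG, against 115 and 113 in nuclear RNA, a difference of -2.65 ± 0.121 (limma adjusted p = 0.000163). The 6SG values of TEX15 and ANK3 each rest on 1 cluster. Set beside other genes with nuclear RNA within 2-fold of their own, the 6SG value of ZNF711 was near the median of 281 over 37 genes, of which 78.4% were called lower, with a median difference of -2.0. The medians of such genes were 44.0 for TEX15, 104.8 for TTC13 and 64.9 for ANK3, with median differences of -0.76, -0.66 and -0.71, so each of the 3 was below that median.

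MDM1 went the other way, with 114 CPM in RNAPII 6SG, against 65.8 and 62.1 in nuclear RNA. Its difference of 0.82 ± 0.887 did not pass the test (limma adjusted p = 0.433). That error comes from the spread of all replicated groups, including its PHC1 libraries of 11.8 and 2.21 CPM. An alternative fit took the spread from the nuclear RNA libraries alone. It holds no PAR-CLIP replicates by which to judge a lone PAR-CLIP library, so nothing is read from its p-value. The 6SG value of MDM1 rests on 3 clusters, and the deepest, of 32 bases, held 61.72% of the coverage. MDM1 was the only one of the 9 with a higher level in RNAPII 6SG, at 114, than in RNAPII 4SU, at 94.4.

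Counting the 4 genes listed at 0, 8 of 9 were called lower in RNAPII 6SG than in nuclear RNA and none higher, against 55.5% of tested genes called lower and 26.6% called higher. The median difference over the 9 genes was -2.84 against -0.875 over all tested genes, with the 4 listed at 0 entering through the added 1. Without nuclear RNA replicate 2 the count was 7 of 9, because C22orf46P missed the threshold (limma adjusted p = 0.0547). Among other genes with nuclear RNA within 2-fold of LRP2, 14.84% were listed at 0 in 6SG, and for SMARCA1 that share was 18.99%. It was 30.97% for CCDC112 and 61.34% for C22orf46P. A 6SG value of 0 was thus the more usual one at the RNA level of C22orf46P and the less usual one at that of the other 3.

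RNAPII 4SU, the library used in the choice, lay above both nuclear RNA libraries in all 9 genes, while 47.45% of tested genes had a positive log2 difference from nuclear RNA. The log2 differences, given without a test, were 2.99 in C22orf46P, 1.64 in CCDC112, 1.40 in ANK3 and 1.27 in TEX15. They were 0.82 in SMARCA1, 0.57 in LRP2, 0.55 in MDM1, 0.35 in ZNF711 and 0.31 in TTC13. The median was 0.82 against -0.084 over all tested genes. In limma, 4 of the 9 (TEX15, ZNF711, ANK3 and C22orf46P) were called higher and 0 lower, against 30.2% and 32.6% of tested genes, and nothing is read from that count. Without either nuclear RNA replicate no gene of the whole table was called. With library totals alone the median was 0.52, the differences of TTC13 and ZNF711 were 0.0080 and 0.045, and ZNF711 was no longer called (limma adjusted p = 0.649). This comparison shares its RNA libraries with the 6SG one.

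**Figure D2:**
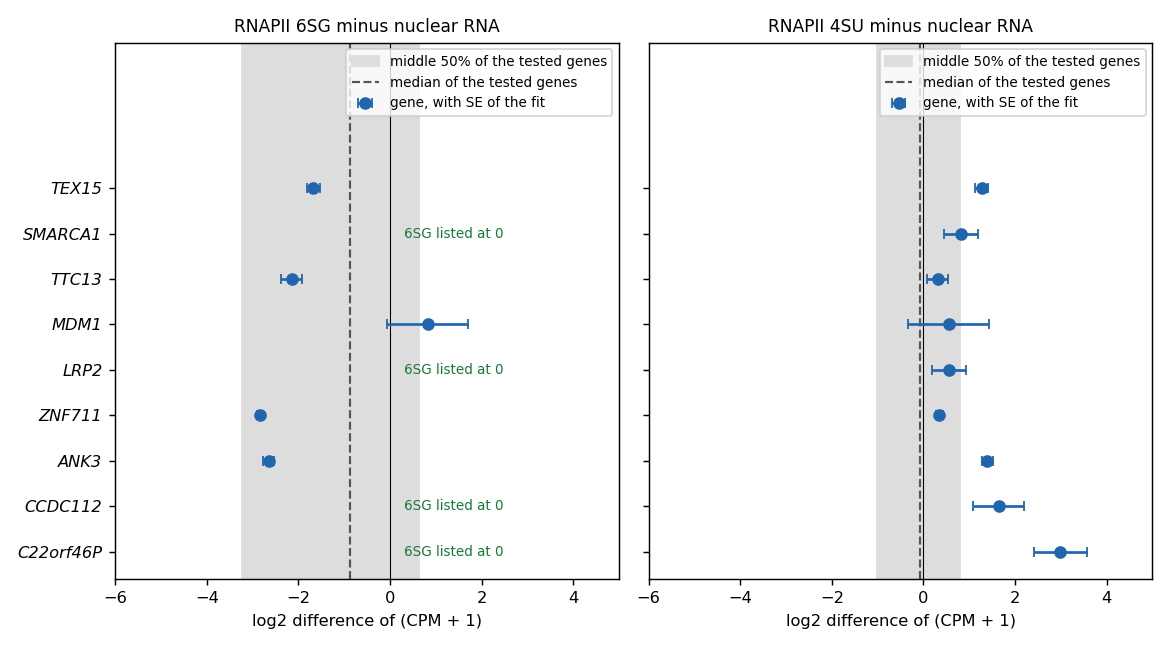
Log2 difference of the CPM value plus 1 for RNAPII 6SG minus nuclear RNA (left) and RNAPII 4SU minus nuclear RNA (right), 1 point per gene with the SE of the limma fit; the grey band holds the middle 50% of tested genes and the dashed line is their median, -0.875 on the left and -0.084 on the right. All 9 points on the right lie above 0, while on the left only MDM1 does and 4 genes have no point because 6SG is listed at 0.

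PHC1 minus nuclear RNA, which uses the PHC1 libraries of the choice, is likewise a description. It was -3.71 in TTC13, -3.38 in ZNF711, -3.37 in SMARCA1, -3.34 in MDM1, -3.28 in TEX15 and -3.19 in LRP2. It was -2.33 in ANK3, -1.97 in CCDC112 and -1.24 in C22orf46P. In limma, 8 of the 9 were called lower and 0 higher, against 43% and 38.7% of tested genes, with C22orf46P not called, and nothing is read from that count either. The median was -3.28 against -0.15 over all tested genes. PHC1 minus RNAPII 6SG, a description for the same reason, was -1.61 in TEX15, -1.56 in TTC13, -0.54 in ZNF711 and -4.16 in MDM1, the last not called (limma adjusted p = 0.0575). PHC1 lay above RNAPII 6SG in SMARCA1, LRP2, CCDC112 and C22orf46P, where 6SG is listed at 0. Of the 9, 3 were called higher and 3 lower, against 46.4% and 18% of tested genes. In ANK3 the PHC1 minus 6SG difference was 0.32, and there the 6SG value of 17.3 was close to the PHC1 values of 20.5 and 23.3.

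The 9 regions held 143 and 133 PHC1 clusters, 676 RNAPII 4SU clusters and 18 RNAPII 6SG clusters. LRP2 had 5 and 8 PHC1 clusters, against 115 of RNAPII 4SU. ANK3 had 13 and 10 PHC1 clusters, against 87 of RNAPII 4SU. TTC13 had 13 and 14 against 92, and TEX15 6 and 5 against 56. SMARCA1 had 5 and 6 against 48, CCDC112 14 and 5 against 38, MDM1 11 and 2 against 32, and C22orf46P 8 and 3 against 32. ZNF711 stood apart with 68 and 80 PHC1 clusters, against 176 of RNAPII 4SU. In ZNF711 the numbers of clusters thus stood closer together than the CPM levels did. Its clusters had a median coverage of 14.9 and 15.9 reads per base in PHC1, against 35.2 in RNAPII 4SU, where the deepest reached 4529.

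**Figure D3:**
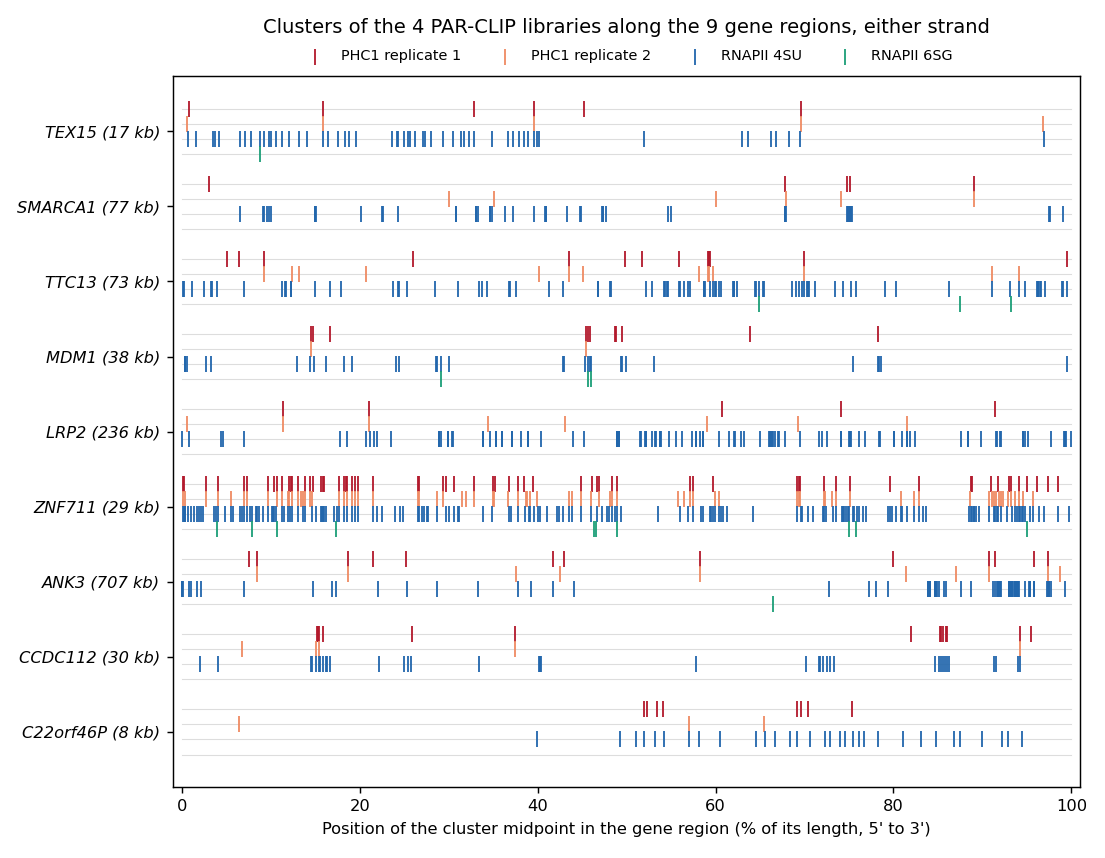
Midpoints of all clusters of the 9 gene regions by library, as percent of the region's length from the 5′ to the 3′ end, on either strand, with PHC1 replicates 1 and 2 above RNAPII 4SU and RNAPII 6SG. The RNAPII 4SU rows are filled along most regions, the PHC1 rows hold few marks outside ZNF711, and the 6SG rows are empty in SMARCA1, LRP2, CCDC112 and C22orf46P.

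Of the 676 RNAPII 4SU clusters, 543 met no PHC1 cluster on the same strand, 80.33% (exact 95% interval 77.12 to 83.26, counting error only), against 59.56% over all tested genes. The share that did meet one was 2.61% in LRP2, 3.45% in ANK3, 7.61% in TTC13, 10.42% in SMARCA1 and 10.71% in TEX15. It was 18.75% in MDM1, 25.0% in C22orf46P, 26.32% in CCDC112 and 48.3% in ZNF711. ZNF711 gave 85 of the 133 clusters that met PHC1, and without it the share was 9.6%. Only ZNF711 exceeded the 40.44% of all tested genes. These shares follow in part from the choice of the genes and are given as a description.

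The clusters that met PHC1 were mostly the deep ones. In ZNF711 the median coverage was 118 where a PHC1 cluster was met and 22 where none was, and in SMARCA1 it was 102 and 28.1. In MDM1 it was 66.2 and 18.7, and in CCDC112 57.6 and 21.6. ANK3 was the exception, with 12.0 where PHC1 was met and 16.9 elsewhere, over 3 and 84 clusters. By summed coverage, 33.46% of the members' RNAPII 4SU signal lay in clusters without PHC1, near the 29.53% of all tested genes. That total is dominated by ZNF711, at 9.75%, and the share was 75.41% over the other 8 genes. It was 97.29% in ANK3, 96.81% in LRP2, 77.37% in SMARCA1, 76.91% in TEX15 and 75.98% in TTC13. C22orf46P, MDM1 and CCDC112 were lower, at 47.76%, 43.22% and 39.08%.

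**Figure D4:**
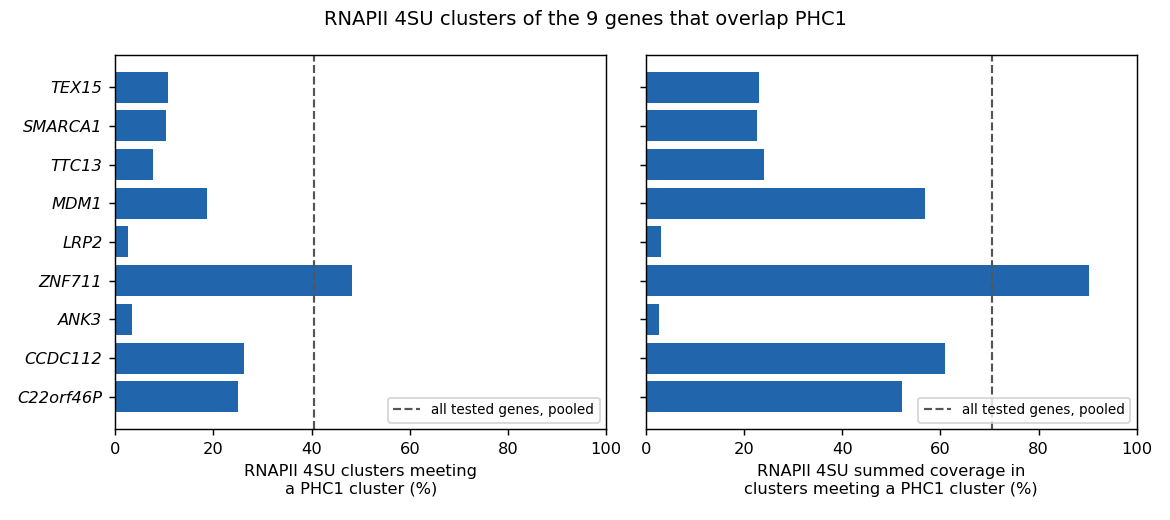
Share of each gene's RNAPII 4SU clusters (left, percent of clusters) and of their summed coverage (right, percent of coverage) that met a PHC1 cluster of either replicate on the same strand; dashed lines are the pooled shares over all tested genes, 40.44% and 70.47%. ZNF711 is the only bar past either line, and LRP2 and ANK3 have the shortest bars.

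Read from the other side, 69.23% and 66.17% of the members' PHC1 clusters met an RNAPII 4SU cluster, against 30.84% and 29.44% over all tested genes. Without ZNF711 these shares were 54.67% of 75 clusters and 35.85% of 53. RNAPII 6SG met RNAPII 4SU in 15 of its 18 clusters, 83.33% (58.58 to 96.42), against 52.24% over all tested genes. Of these 15, 10 lay in ZNF711 and 3 in MDM1. Because the genes were chosen for a high RNAPII 4SU signal, the PHC1 and 6SG shares that met 4SU follow in part from the choice. They are given as a description. From the 4SU side, 2.22% of clusters (1.25 to 3.63) met a 6SG cluster, against 3.72% over all tested genes. The 6SG cluster of ANK3 at chr10:62023593-62023631 and those of TTC13 at chr1:231046859-231046896 and chr1:231051081-231051121 (hg19) met none.

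RNAPII 4SU clusters lay almost wholly on the genes' own strands, 674 of 676, or 99.7%, against 95.7% over all tested genes. The strand of TEX15 and C22orf46P was itself taken from these clusters, and over the other 7 genes the count was 586 of 588. The 2 exceptions were 1 cluster each in LRP2 and ZNF711. PHC1 had 11 and 9 clusters on the opposite strand. Its share on the gene's strand was 92.3% and 93.2%, against 93.1% and 93.3% over all tested genes. That nearness rests on ZNF711, whose 68 and 80 PHC1 clusters included 0 on the opposite strand. Without ZNF711 the 11 and 9 opposite-strand clusters stood among 75 and 53, so the gene-strand share was below that of all tested genes. In LRP2 and ANK3 a large part of the little PHC1 coverage came from the opposite strand. The gene's strand held 20.31% and 41.76% in LRP2 and 62.3% and 46.87% in ANK3. Both replicates had the same opposite-strand site as their deepest cluster there. In LRP2 it starts at 170169706 on chromosome 2, with a mean coverage of 47.8 and 65.5, and in ANK3 at 61851593 on chromosome 10, with 43.1 and 61.0. Gene levels here count both strands, so the PHC1 levels of LRP2 and ANK3 include these sites.

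ANK3 differed from the other 8 in how its RNAPII 4SU signal was built. A single cluster of 19 bases at chr10:61890981-61890999 (hg19), with a mean coverage of 5405 reads per base, held 57.81% of its 4SU coverage. In the other 8 genes the deepest cluster held between 4.64% in LRP2 and 20.63% in MDM1, against a median of 17.56% over all tested genes. With the deepest cluster of every gene left out, the PHC1 minus RNAPII 4SU difference of ANK3 was -2.92 in place of -3.72 and its RNAPII 4SU minus nuclear RNA difference 0.52 in place of 1.40. This alternative was added after the data were seen. No gene region of the table overlaps any of the 9 genes, and genes missing from the table were not looked at.

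Each region was divided into 10 bins of equal length, numbered from the 5′ end. Bin 1 held on average 5.6% of a member's RNAPII 4SU coverage, against 12.39% over the 7134 genes with a known strand and 4SU clusters. TEX15, at 14.33%, and SMARCA1, at 15.48%, were above that average and the other 7 below it. The regions of TEX15 and C22orf46P span 21.5% and 82.6% of the RefSeq length, so their bin 1 need not be the 5′ end of the gene. In TEX15 bins 1 to 4 held most of the signal, with 30.59% in bin 4. A further 7 RNAPII 4SU clusters with a summed coverage of 6307 lay within 20 kb upstream of its region, against 105318 inside it, while the other members had 0 to 2 there. In ANK3 bins 9 and 10 held 64.28% and 28.92%. ANK3 has RefSeq promoter entries inside its region as well as at its 5′ end, the last at chr10:60140691-60140990 (GRCh38.p14). From which start this RNA came was not tested, and the promoter ChIP below covers a single start site per gene. In C22orf46P no 4SU cluster lay in bins 1 to 3, and bins 6 to 8 held the most. MDM1 had 33.5% in bin 2 and 30.46% in bin 5, and CCDC112 had 41.91% in bin 2. The largest bin of LRP2 held 17.27%, the most even spread of the 9, over 115 clusters.

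The promoter ChIP columns are not among the values that chose the genes. They have 1 library per target, or 1 joined value of both replicates for PHC1 and PHC1-dFCS, so no replicate test was possible. H3K4me3, the mark of active promoters, was above the median of all genes at 6 of the 9 start sites. TTC13 had 366 H3K4me3 reads (exact 95% Poisson interval 329 to 405), MDM1 317, ANK3 260, SMARCA1 240, LRP2 235, CCDC112 205 and ZNF711 145, against a median of 146 over all genes. Input reads at these 7 sites numbered 20 to 35. TEX15 had 27 H3K4me3 reads against 37 of input and C22orf46P 41 against 27. Scaled to library size, H3K4me3 was 13.2-fold over input at TTC13 and 14.3-fold at MDM1, and below input at TEX15, at 0.658-fold. The start site of TEX15 in the table belongs to the 17.5 kb region noted above. Among genes with nuclear RNA within 2-fold of their own, 6 of the 9 lay below the H3K4me3 median, from the 0.3rd percentile of TEX15 to the 44.36th of SMARCA1. TTC13, MDM1 and ANK3 lay above it, at the 82.15th, 77.54th and 53.64th.

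RNAPII at the start sites did not follow H3K4me3 in every gene. TTC13 had 154 RNAPII reads (131 to 180) against 25 of input, 7.33-fold after scaling and at the 99.47th percentile of all genes. ZNF711 had 97 against 23, 5.02-fold and at the 93.58th percentile. MDM1, CCDC112 and ANK3 had 59, 61 and 50 reads, or 3.51-, 3.16- and 2.98-fold over input. SMARCA1 had 40 RNAPII reads (28.6 to 54.5) against 27 of input, 1.76-fold, beside an H3K4me3 8.02-fold over input. LRP2 had 30 RNAPII reads (20.2 to 42.8) against 35 of input, a ratio of 1.02 after scaling, beside an H3K4me3 6.06-fold over input. TEX15 and C22orf46P had ratios of 1.13 and 0.970. Thus 3 genes with 92.4 to 179 CPM in RNAPII 4SU PAR-CLIP showed no RNAPII above input at the table's start site at this depth. Among genes with nuclear RNA within 2-fold of their own, ZNF711 was at the 43.42nd percentile of RNAPII and ANK3 at the 33.7th. SMARCA1, C22orf46P, TEX15 and LRP2 were at 15.23, 8.18, 4.68 and 2.73. TTC13, CCDC112 and MDM1 lay above the median, at 98.34, 57.24 and 53.01.

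ZNF711, the most abundant in nuclear RNA, had an H3K4me3 percentile of 49.42, and of the 38 genes with nuclear RNA within 2-fold it was near the bottom, at the 3.95th percentile. Of the promoters printed above, those of TTC13 and LRP2 both hold GC boxes and stand at the 99.47th and the 18.04th percentile of RNAPII.

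**Figure D5:**
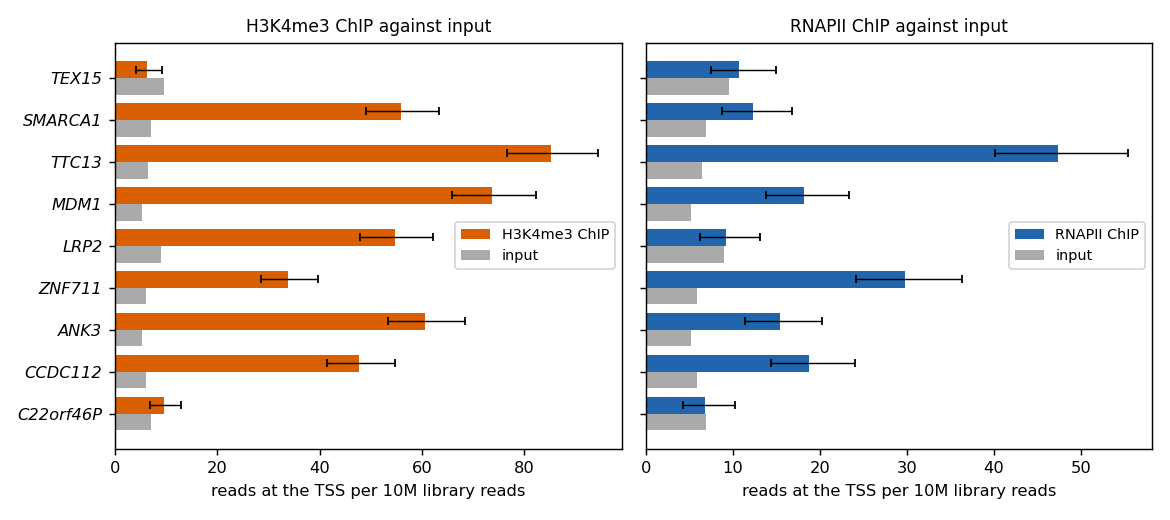
H3K4me3 (left) and RNAPII (right) ChIP reads at the start site beside input reads, each per 10M library reads, for the 9 genes; bars are 1 library and error bars are exact 95% Poisson intervals of the ChIP reads, which cover counting error only. TTC13 has the longest bar in both panels, H3K4me3 does not exceed input at TEX15, and RNAPII at LRP2, TEX15 and C22orf46P is level with input.

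H3K27me3 and EZH2 ranged from below input to slightly above it. H3K27me3 reads numbered 13 to 33 and EZH2 reads 15 to 31, against 20 to 37 of input. After scaling, H3K27me3 over input was lowest at TTC13, at 0.468 (13 reads, 6.92 to 22.2, against 25 of input), then 0.643 at LRP2 and 0.665 at CCDC112, and highest at SMARCA1, at 1.10. EZH2 over input was lowest at LRP2, at 0.612, and highest at MDM1, at 1.30. In the authors' joined columns, PHC1 ChIP ranged between -4.02 at LRP2 and 2.76 at TTC13 in input-subtracted reads per 10M, against a median of 0.067 over all genes. TTC13 and ZNF711 were at the 96.16th and 95.23rd percentiles, MDM1 and C22orf46P at the 85.53rd and 86.09th, and LRP2 at the 1.11th. Reads behind the joined columns were not recovered, so these scores carry no counting interval, and a percentile alone does not show binding. PHC1-dFCS ranged between -2.31 at LRP2 and 3.00 at MDM1, against a median of 1.13 over all genes. LRP2 was the lowest of the 9 in EZH2, PHC1 and PHC1-dFCS, and its input of 35 reads was the highest after the 37 of TEX15. Because each of these values is a difference from the same input, a high input lowers them together, and its part in the result was not tested.

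The 5 genes outside the 9 with the most similar profile over the 6 RNA-level libraries, by Euclidean distance on the log2 scale to the members' median profile, were MAGOHB, FLT4, CEP78, TRAPPC11 and HEATR6, at distances of 1.04 to 1.24. MAGOHB had 15.3 and 16.8 CPM in PHC1, against 110 in RNAPII 4SU and 18.4 in RNAPII 6SG, and 70.6 and 76.7 in nuclear RNA. CEP78, a centrosomal protein gene, had 13.1 and 8.75 in PHC1, against 106 in RNAPII 4SU and 32.5 in RNAPII 6SG, and 105 and 102 in nuclear RNA.

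Relatives and partners of the 9 genes did not share one pattern. Among the other ISWI remodelling genes, 8 of 10 listed were tested, and in PHC1 minus RNAPII 4SU 1 was called higher and 3 lower in limma, against 20.8% and 14.9% of all tested genes. SMARCA5, the second human ISWI ATPase, was low in PHC1 like SMARCA1, with 70.9 and 45.4 CPM in PHC1, against 259 in RNAPII 4SU (log2 difference -2.17). Unlike SMARCA1, which was listed at 0, SMARCA5 had 409 CPM in RNAPII 6SG, against 279 and 285 in nuclear RNA. That log2 difference of 0.54 was not called (limma adjusted p = 0.154). BPTF, the large subunit of the NURF remodeller, had 1205 and 1125 in PHC1, against 1392 in RNAPII 4SU, a difference of -0.26 that was not called. CECR2, another ISWI partner, had 539 and 550 in PHC1, against 239 in RNAPII 4SU, and was called higher at 1.19 (limma adjusted p = 0.0300).

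Of 8 centriole and cilium genes listed beside MDM1, 5 were tested, and all 5 were called lower in PHC1 than in RNAPII 4SU, against 14.9% of all tested genes, with a median of -1.54 against -0.091. No gene was called with library totals alone. CEP164, a gene of centriolar appendages, had 31.7 and 27.6 CPM in PHC1, against 94.1 in RNAPII 4SU. PCM1, the scaffold of centriolar satellites, had 622 and 618 in PHC1, against 1619 in RNAPII 4SU. In RNAPII 6SG minus nuclear RNA, 3 of these 5 were called higher and 1 lower, against 26.6% and 55.5% of all tested genes. CEP164, with 231 in RNAPII 6SG against 50.4 and 47.7 in nuclear RNA, was like MDM1 on the higher side.

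The genes whose proteins work with LRP2 in endocytosis differed in level. LRPAP1, the chaperone of LRP2, had 105 and 77.0 CPM in PHC1, against 110 in RNAPII 4SU and 91.8 in RNAPII 6SG, and 182 and 173 in nuclear RNA, above LRP2 in both PHC1 and nuclear RNA. CUBN, the cubilin receptor, had 42.0 and 35.2 CPM in PHC1, against 16.4 in RNAPII 4SU, and 10.9 and 10.8 in nuclear RNA. DAB2, an endocytic adaptor, had 12.6 and 9.06 in PHC1, against 22.02 in RNAPII 4SU, and 18.3 and 19.1 in nuclear RNA. Both were listed at 0 in RNAPII 6SG, as LRP2 was. Their nuclear RNA, however, was within 2-fold of that of C22orf46P. At that level 61.34% of other genes were at 0, against 14.84% at the level of LRP2. AMN, which carries cubilin to the membrane, was at 0 too, but its nuclear RNA of 1.28 and 1.16 lay below the lowest 6SG value of any tested gene, so that 0 says nothing of a difference. Among LDL receptor relatives, 3 of 8 were tested, and 1, LRP5, was called lower in PHC1 than in RNAPII 4SU, against 14.9% of all tested genes, with 40.3 and 31.1 in PHC1 and 102 in RNAPII 4SU. PHF8, the demethylase partner of ZNF711, had 157 and 127 in PHC1, against 257 in RNAPII 4SU, a difference of -0.86 that was not called (limma adjusted p = 0.0639).

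The germ cell genes tested beside TEX15 were much lower in nuclear RNA than TEX15 itself. Of 9 listed, 6 were tested, and MAEL, a piRNA pathway gene, had 43.6 and 46.4 CPM in PHC1, against 8.56 in RNAPII 4SU, and 0.581 and 0.471 in nuclear RNA. DMC1, the meiotic recombinase, had 13.8 and 13.3 in PHC1, against 1.12 in RNAPII 4SU, and 1.64 and 1.63 in nuclear RNA. Of the 6, 5 had under 5 CPM in both nuclear RNA libraries and passed the filter on low values only through PAR-CLIP, so a count or range over the list says nothing of it. TEX14, a gene of germ cell bridges, had 64.3 and 46.05 in PHC1, against 74.2 in RNAPII 4SU, and 18.8 and 21.7 in nuclear RNA. TEX14 was the 1 gene of the 6 that passed in nuclear RNA, and its PHC1 minus RNAPII 4SU difference of -0.44 was not called (limma adjusted p = 0.307).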

How the data were processed

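The authors deposited per-gene RNA-seq counts, a per-gene ChIP score at the transcription start site, and PAR-CLIP cluster lists whose signal is the mean read coverage per base. Per the submitters' processing notes, reads were placed on hg19 with Bowtie 0.12.7 (PAR-CLIP), TopHat2 2.0.11 (RNA-seq) and Bowtie2 2.2.3 (ChIP-seq), with SAMtools 0.1.19 and R 3.1.0, 3.2.2 or 3.3.0. The cluster caller, its limits and the start-site window are not given in the sources used here. The members and gene lists were chosen with earlier results of these data known.

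Mean coverage multiplied by cluster length came out whole (tolerance 0.001) for 100% of the clusters, so summed coverage was added per gene. A cluster on either strand was assigned by its midpoint to the region starting nearest before it. Sums and counts were scaled with TMM factors (edgeR 4.0.16), expressed as CPM, filtered at 5 CPM in at least 2 libraries, and compared with limma 3.58.1 (R 4.3.3, trend, robust) on log2 of the value plus 1, with Benjamini-Hochberg adjustment over 9517 genes. PHC1 contrasts with RNAPII used their own 3 libraries, PHC1 with RNA used 4, and the RNAPII contrasts with RNA used all 6. Fits were tested on simulated data. The design foresaw edgeR for read counts per cluster, but summed coverage is no read count, so edgeR was used only on cluster numbers, as an alternative.

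The deposited ChIP score was found, within a tolerance of 1e-08 in 100% of genes, to be whole reads per 10M minus those of the input, which gave back the reads of RNAPII, EZH2, H3K27me3, H3K4me3 and input. The PHC1 and PHC1-dFCS columns are the authors' joined values. In the RNA-seq table, 1 further value column was not used. Symbols were matched for 14378 of 14432 genes. Named genes are the 9 members, the 5 nearest profiles, listed relatives and partners, and cell type markers, and PPP1R26 was named after its value was seen. Cluster intervals are exact binomial and read intervals exact Poisson, both covering counting error only.

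Replicate numbers did not pair PHC1 with RNA libraries beyond the number itself. Alternatives changed the scaling, the added value (0.5 or 5), the filter, the assignment of clusters, the deepest clusters, the spread used, single replicates and overlap limits.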

Additional observations from a re-analysis of the deposited data

How the results depend on the processing

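For PHC1 against RNAPII 4SU, 1976 genes were called higher and 1421 lower, and limma called 0 in either direction with library totals alone (1971 and 2790 at an unadjusted p under 0.05) and 0 without the filter (2817 and 2343), while edgeR on cluster numbers called 1586 and 1344. With the spread of all 6 libraries 3164 and 3242 were called, and without a PHC1 replicate 4020 to 4109 and 4474 to 4573. For PHC1 against RNAPII 6SG, 1714 genes were lower, 834 with each gene's deepest cluster left out (added after the data were seen) and 2845 to 2886 without a PHC1 replicate, and edgeR on cluster numbers called 124 higher and 102 lower. There TEX15 reversed to 2.87 with the deepest cluster left out, since its only 6SG cluster is then gone, and ANK3 to -0.18 by cluster number. PHC1 against nuclear RNA called 2498 to 4798 genes lower without single replicates. RNAPII 4SU against nuclear RNA called 0 genes in either direction without an RNA replicate (2088 and 1947, or 2136 and 1954, at an unadjusted p under 0.05) and up to 4092 higher and 4540 lower without a PHC1 replicate. Without a PHC1 replicate the spread in these fits came from the 2 nuclear RNA libraries alone, and without an RNA replicate from the 2 PHC1 libraries alone. The median absolute log2 difference between replicates was 0.054 in nuclear RNA and 0.243 in PHC1. Nothing is read from the counts of fits that left out a replicate. The cause of the other changes was not tested. With library totals the median over all genes was -0.32 in place of -0.091 for PHC1 against 4SU, -0.69 in place of -0.15 for PHC1 against RNA, -0.374 in place of -0.084 for 4SU against RNA and -1.15 in place of -0.875 for 6SG against RNA, and no member changed direction. The members' median for 4SU against RNA was then 0.52 in place of 0.82. TTC13 and ZNF711 stayed called lower in RNAPII 6SG than in nuclear RNA under every alternative that kept both PHC1 and both nuclear RNA libraries in the fit. TEX15 and ANK3 did too, but with each gene's deepest cluster left out their 6SG value is 0 by construction. PHC1 against nuclear RNA lost MDM1 and CCDC112 without either RNA replicate.

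The RNAPII 4SU clusters meeting no PHC1 cluster were 86.83% when 0.5 of the cluster's length had to be covered, 69.08% when PHC1 could lie within 100 bases and 83.58% to 85.95% without a PHC1 replicate, against 66.52%, 43.81% and 64.63% to 67.96% over all tested genes. By coverage they were 55.73%, 27.0% and 36.6% to 39.83%, against 42.51%, 21.03% and 33.75% to 38.11%. With a 6SG cluster allowed within 100 bases, 5.03% of clusters and 9.19% of coverage met one, against 8.47% and 13.83%. The members' median percentile among all genes, with the ratio over input and among genes of similar RNA, was 66.99 and 71.9 for EZH2 (68.93 as scored), 45.34 and 47.84 for H3K27me3 (44.29), 61.75 and 36.87 for H3K4me3 (66.39), and 67.92 and 33.7 for RNAPII (66.34).

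With the replicate number as a block, 3636 genes were higher and 4095 lower in PHC1 than in nuclear RNA, against 3680 and 4093 without, and C22orf46P passed (-1.24, limma adjusted p = 0.0281). Same-numbered libraries hardly deviated together (correlation 0.041 over 9517 genes), so the block changed no other member's call and pairs only a number. Coverage of crosslinked reads is not a count of molecules, 6SG had 45259 clusters, and the lone RNAPII libraries limit what any test here shows.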
